A study of Mus musculus with 3 samples.

Results

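The natriuretic peptide system of the newborn mouse heart was followed through 7 genes: the ligand genes Nppa, Nppb and Nppc, the receptor genes Npr1, Npr2 and Npr3, and Corin, which encodes a protease that processes the Nppa product. They were picked by gene symbol from the 28001 features of the count tables, and each symbol matched 1 Ensembl gene: ENSMUSG00000041616 for Nppa, ENSMUSG00000029019 for Nppb, ENSMUSG00000026241 for Nppc, ENSMUSG00000027931 for Npr1, ENSMUSG00000028469 for Npr2, ENSMUSG00000022206 for Npr3 and ENSMUSG00000005220 for Corin. Over all cells that were kept, 31870 unique molecular identifiers (UMIs, each standing for 1 captured RNA molecule) belonged to Nppa, 219 to Nppb, 1552 to Nppc, 5268 to Npr1, 1184 to Npr2, 6746 to Npr3 and 1028 to Corin.

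Hearts came from ICR mice at postnatal day 2 that carried HCN4H2BGFP, a reporter of the pacemaker channel gene Hcn4, and droplet single-cell RNA sequencing gave 3 libraries. The GFP-positive library held cells sorted for HCN4-GFP, the GFP-negative library held the sorted cells without it, and the RA library was not sorted. The last is titled RA while its tissue label names the sinoatrial node region, so it is called RA here without a claim about its exact origin. All 3 libraries carried the reporter allele, and the labels do not say how many animals were pooled. Each group was 1 library, so no test between groups was possible. Every interval below covers counting error only.

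Atrial natriuretic peptide, the product of Nppa, and B-type natriuretic peptide, the product of Nppb, are hormones that heart muscle cells release when stretched. Both activate the Npr1 receptor, a guanylyl cyclase whose product, cyclic GMP, relaxes vessels and promotes sodium excretion. C-type natriuretic peptide, from Nppc, is a local signal that acts mainly through Npr2, a related guanylyl cyclase. Npr3 lacks the cyclase domain, binds all these peptides and removes them. Corin is a membrane-bound serine protease of cardiomyocytes that cleaves the precursor of atrial natriuretic peptide. In the developing mouse heart Nppa is known as a marker of working chamber muscle that is low in the pacemaker and conduction tissue, where the repressors Tbx3 and Tbx2 are present.

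The 3 libraries held 18798213 to 50086809 UMIs in 1289 to 3289 cells, with a median of 11417 to 14143 UMIs per cell. Cells were sorted into classes by gates, each of which asked for at least 3 marker genes of a list of 8 to 12 at 2 or more UMIs, and 73.8% to 74.2% of the cells of a library passed exactly 1 gate. Cells that passed several gates (829 in the GFP-positive, 542 in the GFP-negative and 243 in the RA library) were left out of the classes. The libraries shared few barcodes: 19 between the sorted libraries, 8 between GFP-positive and RA, and 9 between GFP-negative and RA. The 3 reporter features together reached 43.8 CPM (counts per 1e6, the UMIs of a gene per 1e6 UMIs of the summed cells) in the GFP-positive library, 0.522 CPM in the GFP-negative library and 0.745 CPM in the RA library.

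The cardiomyocyte gate held 104 GFP-positive, 25 GFP-negative and 41 RA cells, and all 8 of its markers were detected in each. The GFP-positive library was mostly endothelial by the gates (2162 cells), and the GFP-negative library mostly fibroblast (1596 cells). The 8 fibroblast markers summed to 762 CPM in GFP-positive, 682 CPM in GFP-negative and 777 CPM in RA endothelial cells, against 11859 CPM in GFP-negative fibroblasts. Their part in the results on endothelial cells was not tested.

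**Figure D1:**
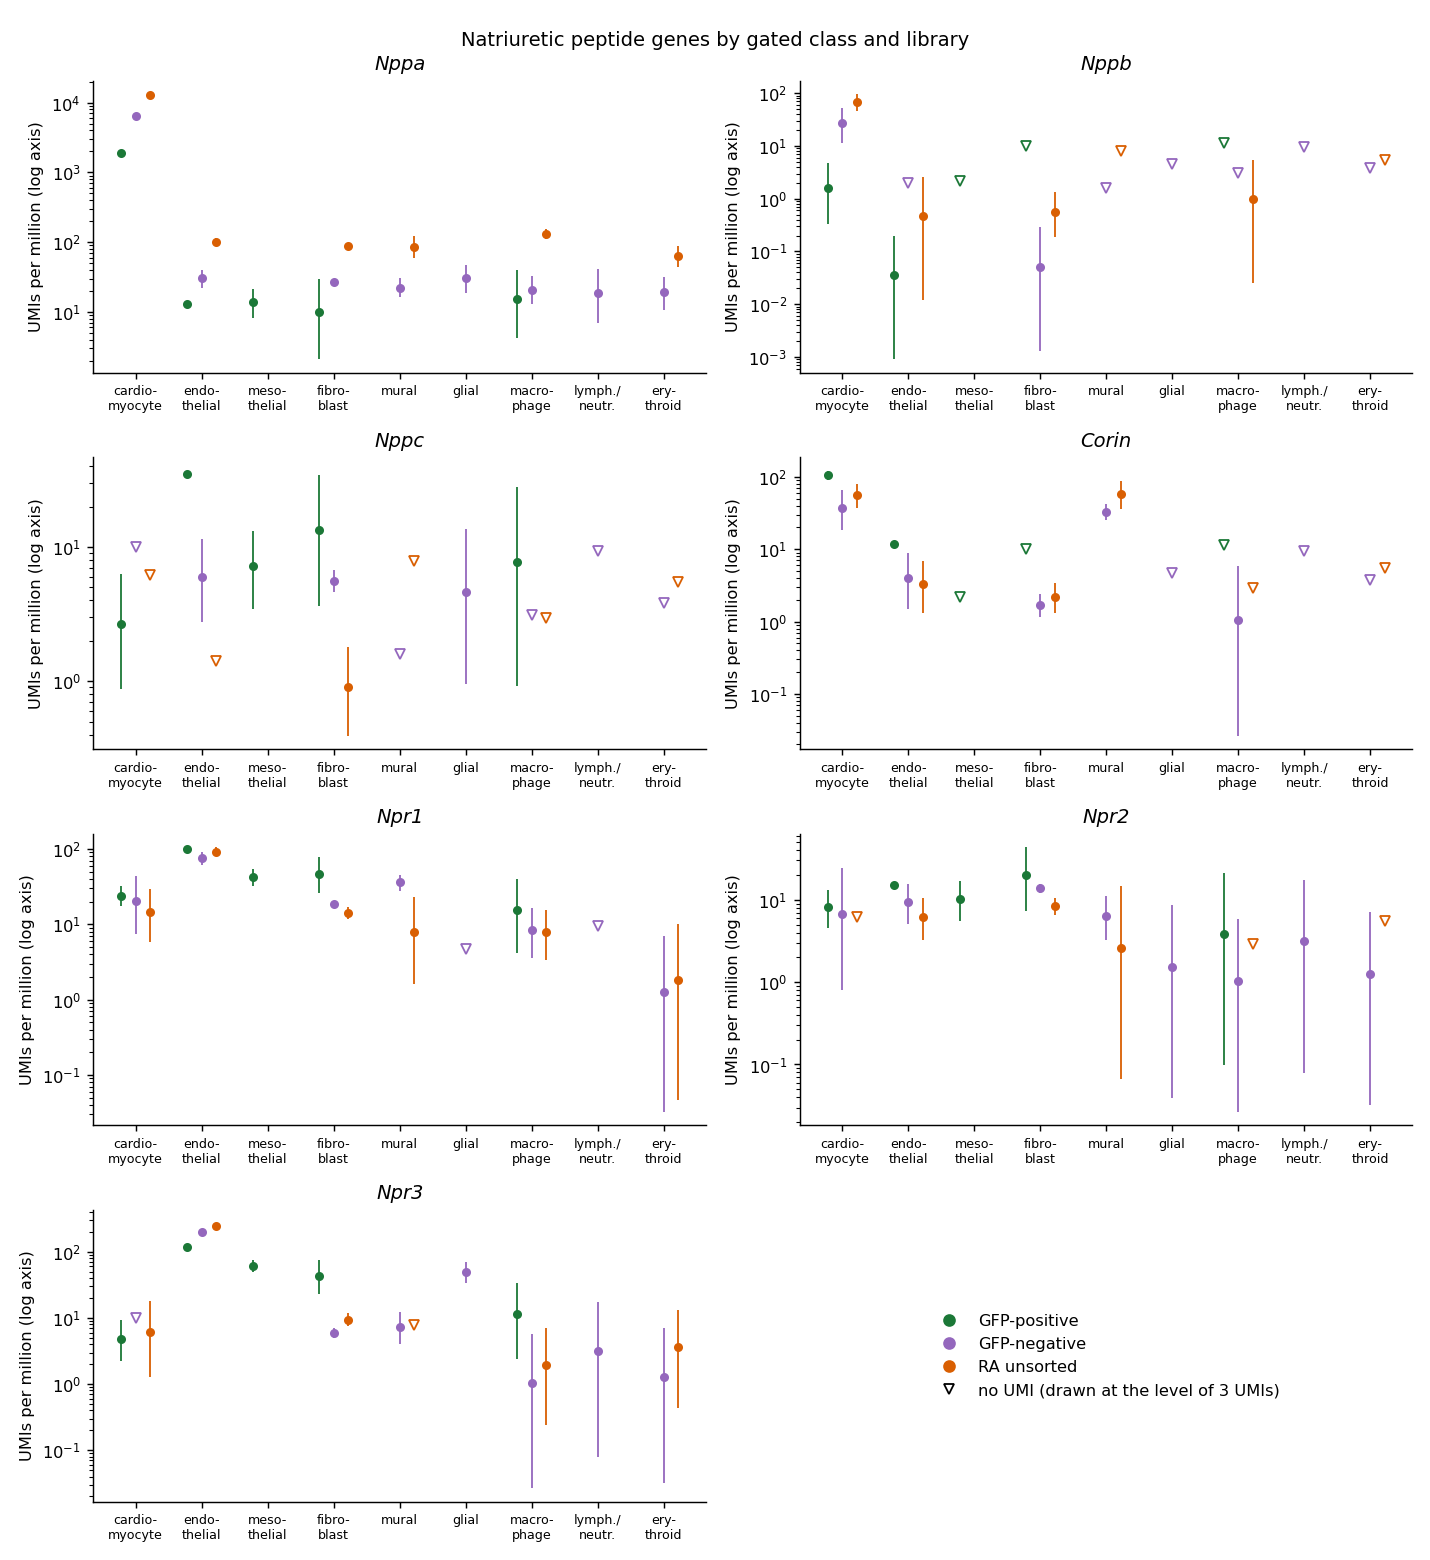
Levels of the 7 genes in the gated classes of the 3 libraries, in CPM on a log scale, with bars for the 95% Poisson interval of counting error. Nppa stood highest in cardiomyocytes of every library (1888, 6437 and 12846 CPM), Nppc in endothelial cells of the GFP-positive library (34.8 CPM), and Npr1 and Npr3 in endothelial cells.

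Nppa RNA was concentrated in cardiomyocytes, and among these it was lowest in the library sorted for the Hcn4 reporter. In RA cardiomyocytes Nppa made up 12846 CPM (95% Poisson interval 12529 to 13168, 6249 UMIs in 41 cells). In GFP-negative cardiomyocytes it made up 6437 CPM (6152 to 6732, 1919 UMIs in 25 cells). In GFP-positive cardiomyocytes it made up 1888 CPM (1826 to 1952, 3507 UMIs in 104 cells). The 3 intervals did not overlap, and the GFP-positive level was lower than the RA level by a factor of 6.80, a log2 ratio of -2.77 (exact binomial interval -2.83 to -2.71). Beside it, 24.1% of all 9863 genes measured in these cells differed by more than 2-fold in either direction. Of the 6 members measured there (10 or more UMIs in both groups together), Nppa and Nppb were lower by more than 2-fold, Npr2 counted as higher and 3 lay between. The Npr2 call set 15 UMIs against 0 and rests on the 0.5 added to each sum, since its interval (log2 from -0.09) includes no difference.

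The cells within a library were far less alike than these sums. In RA cardiomyocytes the lowest cell held 1 Nppa UMI, the median cell 55 and the highest 1085. In GFP-negative cardiomyocytes the corresponding values were 0, 60 and 244 UMIs. In GFP-positive cardiomyocytes they were 0, 0 and 1041 UMIs. So the GFP-positive median was at 0 while its highest cell came close to the highest RA cell. No Nppa UMI was seen in 68 of the 104 GFP-positive cardiomyocytes, 22 held 1 to 9, 5 held 10 to 99, and 9 held 100 or more. Those 9 cells carried 90.4% of the Nppa UMIs of the class. The 5 highest cells carried 70.9% in the GFP-positive, 53.2% in the GFP-negative and 52.1% in the RA library, so that few cells set each class level. The GFP-positive cells without Nppa had a median depth of 16796 UMIs and the 9 highest cells one of 20883 UMIs, while the median was 11096 UMIs over GFP-negative and 9572 UMIs over RA cardiomyocytes. The part of depth in these differences was not tested.

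**Figure D2:**
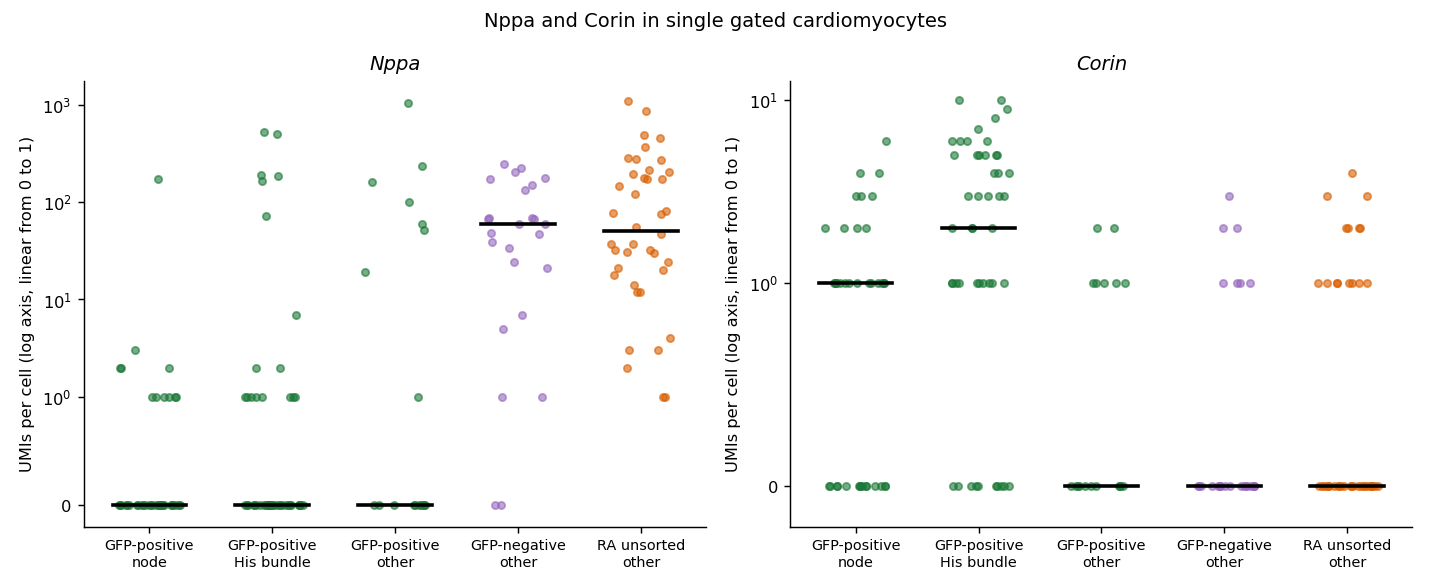
Nppa and Corin in single cardiomyocytes, 1 point per cell, by library and sub-gate, in UMIs per cell on a log axis that is linear from 0 to 1. Most GFP-positive node and His bundle cells lay at 0 Nppa UMIs (28 of 39 and 30 of 47), while all 40 RA cells shown held at least 1. Of these 40 cells, 6 held only 1 to 9. RA endothelial cells also held 215 Nppa UMIs in 191 cells, so a single UMI is not read as expression there. The part of free RNA in these counts was not tested. Lines mark medians, and the 1 RA cell of the node sub-gate is not drawn.

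GFP-positive cardiomyocytes were split by sub-gates into 39 node cells (Shox2, Tbx3, Tbx18, Isl1, Smoc2 and Hcn4 as markers), 47 His bundle cells (Cntn2, Pvalb and Myl2) and 18 others. A cell that passed both sub-gates was counted as His bundle, so the His bundle group may hold cells that also passed the node sub-gate. The reporter features were read in 71.8% of the node cells, in 83.0% of the His bundle cells and in 16.7% of the others. Nppa was at 270 CPM (232 to 311) in node cells. It was at 1913 CPM (1822 to 2008) in His bundle cells. It was at 5552 CPM (5288 to 5825) in the others, whose level was thus the nearest to that of the GFP-negative cardiomyocytes. Single cells made these levels: 1 node cell carried 92.0% of the node UMIs, 5 His bundle cells carried 94.5% of theirs, and 3 of the others carried 86.2% of theirs. The His bundle level was 7.09-fold that of the node cells (log2 2.82, 2.61 to 3.05), a ratio that rested on these few cells and came to log2 1.97 when cells of several gates were given to the class with the most markers.

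Nppa was also read in cells that are not heart muscle, at a level that followed the library. In the RA library the other classes of 20 or more cells held 63.6 to 131 CPM, with 101 CPM and a UMI in 64.4% of cells for endothelial cells and 87.4 CPM and 71.2% for fibroblasts. In the GFP-negative library they held 18.7 to 30.9 CPM, with a UMI in 23.9% of fibroblasts. In the GFP-positive library they held 10.1 to 15.4 CPM, with a UMI in 13.4% of endothelial cells. The same classes also held other heart muscle transcripts. Nppa made up 13.1% of the summed UMIs of Nppa and 7 cardiomyocyte transcripts (Myl7, Myl4, Tnnt2, Tnni3, Myh6, Actc1 and Sln) in RA cardiomyocytes, against 11.5% to 15.6% in the other RA classes. In the GFP-negative library the share was 6.82% (6.53% to 7.12%) in cardiomyocytes, and in the other classes it ran from 4.55% (2.80% to 6.93%) in glial cells to 11.1% (6.35% to 17.7%) in erythroid cells, with 9.12% (8.38% to 9.90%) in fibroblasts. In the GFP-positive library it was 2.69% (2.60% to 2.78%) in cardiomyocytes, 2.34% (2.11% to 2.59%) in endothelial cells and 1.60% (0.97% to 2.49%) in mesothelial cells. The fibroblast interval lay above that of GFP-negative cardiomyocytes, and the intervals of GFP-positive endothelial and mesothelial cells lay below that of theirs. The part of free RNA in the Nppa level of these classes was not tested, and no expression is read from that level.

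**Figure D3:**
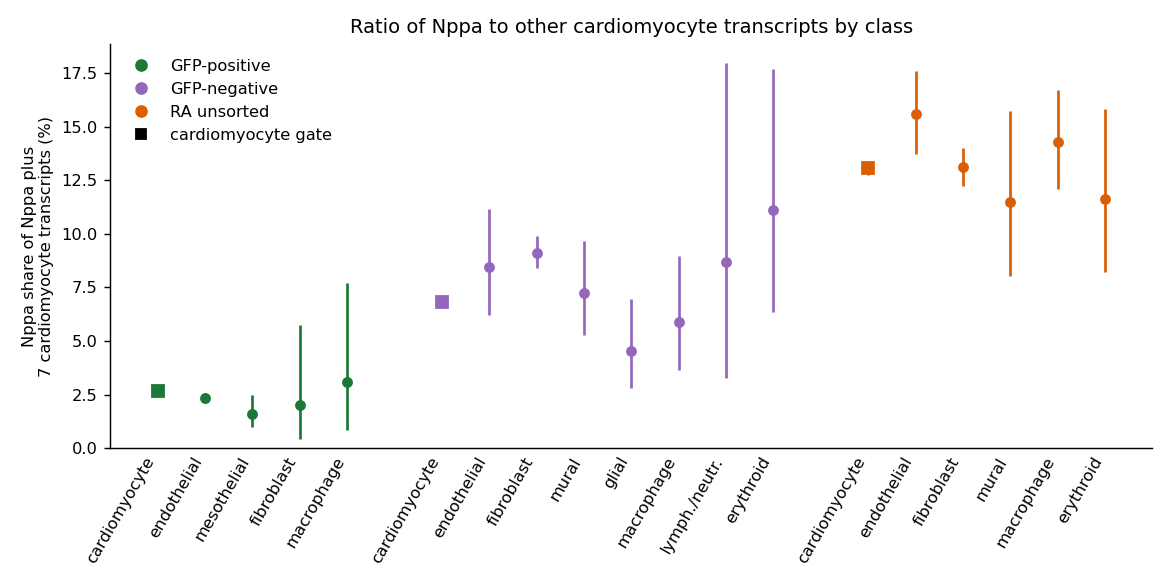
Nppa as a percentage of the summed UMIs of Nppa and 7 other cardiomyocyte transcripts, by class and library, with exact 95% binomial intervals. The other classes ran from 11.5% to 15.6% in RA, where cardiomyocytes were at 13.1%, and from 4.55% to 11.1% in the GFP-negative library, where they were at 6.82%.

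Nppb, the gene next to Nppa on chromosome 4, showed the same order at far lower counts. It had 33 UMIs in 8 of 41 RA cardiomyocytes (67.8 CPM, 46.7 to 95.3). It had 8 UMIs in 4 of 25 GFP-negative cardiomyocytes (26.8 CPM, 11.6 to 52.9). It had 3 UMIs in 3 of 104 GFP-positive cardiomyocytes (1.62 CPM, 0.333 to 4.72), a log2 ratio to RA of -5.19 (-7.74 to -3.72). The GFP-positive interval lay below both others. Outside cardiomyocytes no class held more than 5 Nppb UMIs, the RA fibroblasts having the 5. Cells of several gates held most Nppb UMIs in each library, from 62.1% in the GFP-negative to 86.2% in the GFP-positive library, and 38.8% to 69.4% of those of Nppa. When such cells were given to the class with the most markers, cardiomyocytes held 1761, 8973 and 13026 CPM of Nppa and 3.99, 34.5 and 136 CPM of Nppb in the GFP-positive, GFP-negative and RA libraries, in the same order as before. In RA, cells of no gate held another 10.8% of the Nppa UMIs.

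The 250 bases before the start of each of these neighbouring genes are shown because both genes were low in the same cardiomyocytes. They are RefSeq sequence of build GRCm38.p6, which is not the build of the deposited counts, on the plus strand, at chr4:148000472-148000721 for Nppa and chr4:147985650-147985899 for Nppb, and the starts lie 14822 bases apart. Capitals mark a T-box site with the letters TCACACC and the core bound by Nkx2-5 with the letters AAGTG. They also mark sites of the GATA factors, searched as TGATAA in 1 form. The other form searched was AGATAA. These were searched on both strands, and TATAAA on the given strand only. No matches overlapped.
Nppa: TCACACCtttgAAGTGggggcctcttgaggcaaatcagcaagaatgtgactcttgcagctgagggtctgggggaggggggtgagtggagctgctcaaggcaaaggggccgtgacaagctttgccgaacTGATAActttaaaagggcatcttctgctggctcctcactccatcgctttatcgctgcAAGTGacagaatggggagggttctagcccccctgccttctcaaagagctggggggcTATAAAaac
Nppb: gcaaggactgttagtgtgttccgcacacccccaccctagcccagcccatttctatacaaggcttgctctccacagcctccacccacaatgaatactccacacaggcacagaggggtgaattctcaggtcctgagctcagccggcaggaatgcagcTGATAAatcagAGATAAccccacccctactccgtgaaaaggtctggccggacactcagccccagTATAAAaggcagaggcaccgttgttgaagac
The Nppa window held 1 T-box match, 2 matches to AAGTG, 1 GATA match and TATAAA, while the Nppb window held 2 GATA matches and TATAAA. Among 32851 windows of the same length, 3.33% held TCACACC, 40.7% AAGTG, 16.6% either GATA form and 7.59% TATAAA. The T-box letters are the least common of these, but they are also the longest string searched, and longer strings match less often. The matches are a description of letters, not of bound sites. The Nppc window held only TATAAA, and the windows of Npr1, Npr2, Npr3 and Corin held none of these letters.

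Of the transcription factors known to act at Nppa, 9 of 10 were measured between GFP-positive and RA cardiomyocytes, and 2 were higher by more than 2-fold, none lower and 7 between, a share close to the 24.1% of all genes. The T-box repressor Tbx3 was at 67.8 CPM in GFP-positive against 4.11 CPM in RA cardiomyocytes, and its relative Tbx2 at 21.0 against 2.06 CPM. Both RA levels lay below that of 3 UMIs in these 41 cells, 6.17 CPM, so the size of either difference is uncertain. The activator Nkx2-5 was at 220 against 335 CPM, a log2 ratio of -0.61, and Tbx20 at 153 against 247 CPM. Srf went the other way, at 67.3 against 47.3 CPM. So did Gata4, a GATA factor of the list, at 71.1 CPM in GFP-positive cardiomyocytes. Its level in RA cardiomyocytes was no higher than the 65.4 CPM of RA mural cells. Whether that Gata4 difference exceeds counting error was not tested. Tbx5 was at 113 against 127 CPM and Hand2 at 64.6 against 69.9 CPM. The list's median log2 ratio was 0.23, beside 0.08 over all genes measured. Of the 7 cardiomyocyte transcripts used above, only Sln, a regulator of the calcium pump of atrial muscle, was lower by more than 2-fold (3056 against 8145 CPM). Within the GFP-positive library the His bundle cells, with more Nppa than node cells, held less Tbx3 (53.2 against 110 CPM), which is itself a node marker of the gate, and less Tbx20 (35.9 against 237 CPM), but more Tbx2 (26.6 against 10.1 CPM).

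Nppc was found mainly in endothelial cells of the GFP-positive library. There it had 981 UMIs in 229 of 2162 cells (34.8 CPM, 32.6 to 37.0, and 10.6% of cells). In GFP-negative endothelial cells it had 9 UMIs in 3 of 147 cells (6.03 CPM, 2.76 to 11.4). In RA endothelial cells it had no UMI in 191 cells. The GFP-positive level was above the GFP-negative one by log2 2.45 (1.60 to 3.66, but 1.21 when 2 markers sufficed for a gate and 4.54 when 1 UMI sufficed for a marker). Against RA it was 24.7-fold the level of a floor of 3 UMIs over the class. The exact interval of that ratio began at log2 4.32, or at 2.86 with 2 markers and 2.16 with 1 UMI per marker. Background shares were 21.0% of genes past 2-fold against GFP-negative, where 2 of the 6 measured members (Nppc and Corin) were higher and Nppa lower, and 22.4% against RA, where 3 (Nppc, Npr2 and Corin) were higher and Nppa and Npr3 lower. The Nppa counts of these non-muscle cells carry the limit given above. Median depth was 10869.5 UMIs in GFP-positive and 9356 UMIs in GFP-negative endothelial cells, and the share of cells with an Nppc UMI was 4.02% and 0.680% after each cell was thinned to 2000 UMIs.

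Few endothelial cells carried this signal. The 114 cells with 2 or more UMIs held 88.3% of the Nppc UMIs, 25 cells with 10 or more held 54.8%, and the highest cell held 95. Cells that passed the endocardial sub-gate, whatever else they passed, held 42.1 CPM (39.2 to 45.1), and those of the venous sub-gate 40.9 CPM (38.1 to 43.9). The arterial cells held 24.7 CPM (22.3 to 27.3), the lymphatic cells 9.36 CPM (6.72 to 12.7) and the capillary cells 7.24 CPM (5.36 to 9.57), and these sub-gates share cells. The genes with the largest ratio between the 114 cells and the other endothelial cells, among genes read in at least 25% of the former, were chosen after their values were seen. They were led by the secreted protease gene Adamts8 (65.2 against 4.58 CPM), the retinoic acid binding protein gene Crabp2 (83.9 against 8.13 CPM), the calcitonin receptor partner gene Ramp3 (90.7 against 9.61 CPM) and the ligand gene Wnt9b (73.7 against 8.36 CPM). Other members differed as well: Npr3 was at 40.2 CPM in the 114 cells against 122 CPM in the rest, Npr1 at 93.5 against 100.3 CPM, and Corin at 22.1 against 11.1 CPM. The cells were deeper than the rest, with a median of 13274 against 10738 UMIs.

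A second, lower Nppc signal stood in fibroblasts of the GFP-negative library, with 109 UMIs in 55 of 1596 cells (5.61 CPM, 4.61 to 6.77). RA fibroblasts had 8 UMIs in 5 of 548 cells (0.911 CPM, 0.393 to 1.80), a log2 ratio of 2.54 (1.59 to 3.87). Between these fibroblasts 14.0% of genes were past 2-fold, and of the 6 measured members Nppc was higher, Nppa lower and 4 lay between. Nppc reached 7.20 CPM in GFP-positive mesothelial cells (10 UMIs). It had no UMI in 203 GFP-negative and 34 RA mural cells, nor in 25 GFP-negative and 41 RA cardiomyocytes.

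Corin, the protease, had its highest level in GFP-positive cardiomyocytes, the ones with the least Nppa. It was at 106 CPM (91.8 to 122) in GFP-positive cardiomyocytes, with a UMI in 65.4% of cells. It was at 36.9 CPM (18.4 to 66.0) in the GFP-negative and at 55.5 CPM (36.6 to 80.8) in the RA cardiomyocytes, with a UMI in 39.0% of the latter. The GFP-positive interval lay above both others, and its log2 ratio to RA was 0.91 (0.35 to 1.57), or 2.02 when 2 markers sufficed for a gate. With gates read after thinning to 5000 UMIs it was 0.42 (-0.01 to 0.89), an interval that includes no difference. His bundle cells held 166 CPM (140 to 195), node cells 64.9 CPM (47.3 to 86.8) and other GFP-positive cardiomyocytes 29.97 CPM (13.7 to 56.9). The His bundle level was 2.55-fold that of the node cells (log2 1.34, 0.86 to 1.87), and log2 2.41 when gates were read after thinning to 5000 UMIs. In this comparison 10.0% of genes were past 2-fold, and 2 of the 4 measured members, Nppa and Corin, were. Among GFP-positive cardiomyocytes Corin showed no steady course with Nppa: it was at 103 CPM in the 68 cells without Nppa, 109 CPM in the 22 with 1 to 9 UMIs, 42.3 CPM in the 5 with 10 to 99 and 154 CPM in the 9 with 100 or more.

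Corin was also read in mural cells, the smooth muscle and pericytes of vessels. GFP-negative mural cells held 32.8 CPM (25.2 to 42.1, 62 UMIs in 33 of 203 cells). RA mural cells held 57.5 CPM (36.1 to 87.1, 22 UMIs in 15 of 34 cells). In both libraries the mural interval overlapped that of the cardiomyocytes. Fibroblasts of the same libraries held 1.70 and 2.16 CPM, so the log2 ratios of mural cells to fibroblasts were 4.26 (3.64 to 4.93) and 4.73 (3.78 to 5.70). The first fell to 2.93 when cells of several gates, 422 of which in that library were both fibroblast and mural, were given to the class with the most markers. In mural cells against fibroblasts 23.3% of genes were past 2-fold in the GFP-negative library, where Corin was the only one of 6 measured members that was higher and Nppc and Npr2 were lower, and 29.4% in RA, where Corin was the only higher one of 5, and Npr2 (1 UMI in mural cells) and Npr3 (0 UMIs) counted as lower. Within GFP-negative mural cells Corin was at 52.7 CPM (37.8 to 71.4) in the 81 cells with more UMIs of contractile markers and at 17.7 CPM (10.7 to 27.6) in the 117 with more of pericyte markers. RA did not show low Corin in pericyte-like cells. There 31 of the 34 mural cells had more UMIs of pericyte markers, and these held 55.4 CPM (33.8 to 85.5).

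The 7 cardiomyocyte transcripts stood at 448 CPM in the 33 GFP-negative mural cells with a Corin UMI and at 250 CPM in the others, and their part in the result was not tested. Genes with the largest ratio between these cells, again chosen after their values were seen, were Rergl (151 against 12.9 CPM), Sorbs2 (220 against 25.8 CPM), the muscle genes Tcap and Cav3, Susd5, and Pln (log2 ratio 2.68), the phospholamban gene that restrains the calcium pump. Corin had no UMI in 116 GFP-positive mesothelial and 68 GFP-negative glial cells, which allows up to 2.16 and 4.63 CPM. In endothelial cells it was at 11.8 CPM in the GFP-positive, 4.02 CPM in the GFP-negative and 3.29 CPM in the RA library, a log2 ratio of GFP-positive to RA of 1.75 (0.78 to 3.17), or 3.88 when 1 UMI sufficed for a marker. It was read with Npr3: the 58 GFP-positive endothelial cells with 2 or more Corin UMIs held 345 CPM of Npr3, against 109 CPM in the rest.

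Npr1, the receptor for the Nppa and Nppb products, was an endothelial gene in all 3 libraries. It was at 99.9 CPM (96.2 to 103.6) in GFP-positive, 75.0 CPM (61.7 to 90.2) in GFP-negative and 92.1 CPM (79.7 to 106) in RA endothelial cells, with a UMI in 63.4%, 44.9% and 58.6% of cells. GFP-positive and RA did not differ beyond counting error (log2 0.11, -0.09 to 0.33). Erythroid cells, taken as a class that should lack the gene, had a UMI in 2.17% of GFP-negative and 2.94% of RA cells, and no glial cell had any. Npr1 in endothelial cells was above that in fibroblasts by log2 2.02 (1.70 to 2.33) in the GFP-negative library, where fibroblasts held 18.5 CPM, and by 2.72 (2.38 to 3.05) in RA, where they held 14.0 CPM. Background shares for these contrasts were 32.7% and 29.5%, with 3 of 6 measured members (Npr1, Npr3 and Corin) and 2 of 5 (Npr1 and Npr3) higher and none lower. The Corin call set 6 UMIs in endothelial cells against 33 in the far larger fibroblast class, so that difference is uncertain. Mesothelial cells held 42.5 CPM (32.3 to 54.8), GFP-negative mural cells 36.0 CPM (28.0 to 45.7), RA mural cells 7.85 CPM from 3 UMIs, and cardiomyocytes 14.4 to 23.7 CPM.

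Within GFP-positive endothelial cells Npr1 was lower, and Npr3 higher, in cells with more markers of the endocardium, the inner lining of the heart. The endocardial markers were Tmem108, Nfatc1, Hapln1, Cgnl1 and Adgrg6. Tmem108 was chosen with earlier results of these data known, so the course of Npr3 over the markers is not independent of those results. Cells with 0, 1, 2, 3 and 4 to 5 of these markers held 120, 112, 98.6, 92.0 and 80.7 CPM of Npr1. The same cells held 21.8, 25.7, 79.2, 199 and 298 CPM of Npr3. In RA endothelial cells Npr1 went from 131 CPM at 0 markers to 57.1 CPM at 4 to 5, and Npr3 from 14.7 to 538 CPM. In GFP-negative endothelial cells Npr3 went from 10.5 to 505 CPM, while Npr1 showed no such course (77.9 CPM at 0 markers and 126 CPM in the 9 cells with 4 to 5). The highest step held 215 cells in the GFP-positive, 9 in the GFP-negative and 11 in the RA library, and cells at this step were deeper in the GFP-positive library (median 16061 UMIs, against 8902 at 0 markers).

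**Figure D4:**
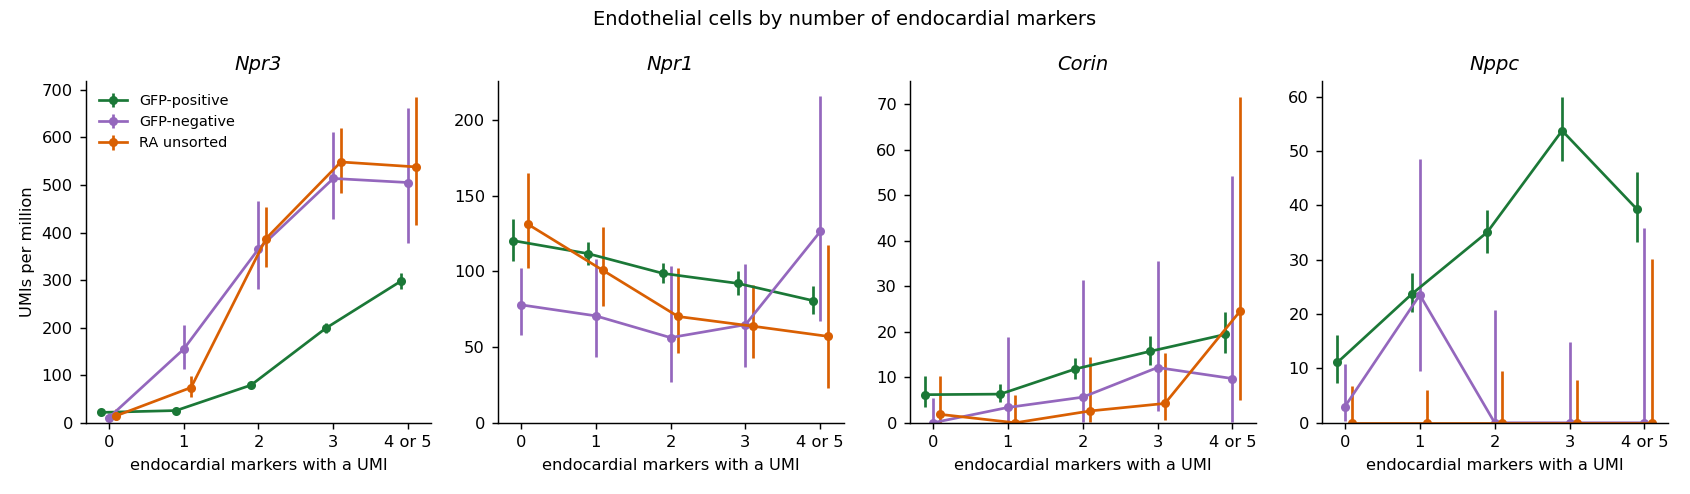
Npr1, Npr3, Nppc and Corin in endothelial cells by the number of endocardial markers read, in CPM with 95% Poisson intervals, for each library. Npr3 went from 21.8 to 298 CPM in the GFP-positive library and from 14.7 to 538 CPM in RA, while Npr1 went from 120 to 80.7 and from 131 to 57.1 CPM. The marker Tmem108 was chosen with earlier results of these data known, so the course of Npr3 is not independent of those results.

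Npr3, the clearance receptor, was the member with the clearest place inside the endothelium. Cells of the endocardial sub-gate alone held 244 CPM (224 to 265) in the GFP-positive, 468 CPM in the GFP-negative and 581 CPM in the RA library, with a UMI in 57.9%, 97.0% and 100% of them. Endothelial cells that passed exactly 1 other sub-gate or none held 37.0, 82.8 and 105 CPM. Cells of several sub-gates were left out of both sides. These were 1428 of 2162 endothelial cells in the GFP-positive, 43 of 147 in the GFP-negative and 88 of 191 in the RA library. The log2 ratios were 2.72 (2.48 to 2.98), 2.49 (2.03 to 2.98) and 2.46 (2.04 to 2.93), so all 3 libraries showed it. In RA the ratio was 3.38 when cells that also passed another sub-gate were kept. Background shares were 13.2% in the GFP-positive library, 22.2% in the GFP-negative and 17.8% in RA. Past 2-fold were Npr3 and Corin of 6 measured members in the first, and Npr3 of 3 in each of the others. The members of the endocardial gate were chosen with earlier results of these data known, so this place of Npr3 is not independent of them. Cells that passed the endocardial sub-gate, whatever else they passed, held 164, 462 and 484 CPM in the GFP-positive, GFP-negative and RA libraries. Capillary cells taken in the same way stood at the other end, with 20.8 CPM in the GFP-positive library and 1 UMI in 67 cells of each of the other libraries. Among the GFP-positive sub-gates Npr1 was highest in these capillary cells, at 132 CPM (124 to 141).

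Over the whole endothelial class Npr3 was at 117 CPM (113 to 121) in the GFP-positive, 199 CPM (177 to 223) in the GFP-negative and 247 CPM (227 to 269) in the RA library. The intervals did not overlap, and the GFP-positive level was lower than RA by a log2 ratio of -1.09 (-1.22 to -0.95). Between GFP-negative and RA endothelial cells 7.40% of genes were past 2-fold, and of the 5 measured members none was higher, Nppa alone was lower and 4, Npr3 among them, lay between. The shares of endothelial cells with a UMI were 32.7%, 41.5% and 49.2%, against 0.943% and 1.98% of GFP-negative and RA macrophages. Endothelial cells exceeded fibroblasts 33.6-fold in the GFP-negative and 26.2-fold in the RA library.

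Outside the endothelium Npr3 was read in mesothelial cells at 61.2 CPM (48.9 to 75.7, 37.1% of 116 cells). GFP-negative glial cells held 49.4 CPM (33.8 to 69.7), with 32 UMIs in 23 of 68 cells. Fibroblasts of that library held 5.92 CPM, and the log2 ratio of glial cells to them was 3.08 (2.45 to 3.63). Endothelial markers in these glial cells summed to 64.8 CPM, against 3950 CPM in GFP-negative endothelial cells, with Emcn at 0. Fibroblasts of RA held 9.45 CPM (7.53 to 11.7), GFP-negative mural cells 7.42 CPM, and cardiomyocytes at most 6.17 CPM from 3 UMIs.

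Npr2, the receptor for the Nppc product, was low in every class and spread over several. Endothelial cells held 15.1 CPM (13.7 to 16.6) in the GFP-positive, 9.37 CPM (5.12 to 15.7) in the GFP-negative and 6.11 CPM (3.25 to 10.4) in the RA library. The GFP-positive interval lay above that of RA, with a log2 ratio of 1.26 (0.52 to 2.23), and overlapped that of GFP-negative. Fibroblasts held 13.8 CPM (12.2 to 15.6) in GFP-negative and 8.43 CPM (6.62 to 10.6) in RA, a log2 ratio of 0.70 (0.34 to 1.10). Mesothelial cells held 10.1 CPM, and GFP-negative macrophages 1.04 CPM from 1 UMI. In cardiomyocytes Npr2 had 15 UMIs in the GFP-positive library (8.08 CPM) and none in 41 RA cells, and the floor of 3 UMIs allows only a 1.31-fold difference. The 114 GFP-positive endothelial cells with 2 or more Nppc UMIs held 24.4 CPM of Npr2 (43 UMIs), against 14.5 CPM in the rest.

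The genes around these receptors were described by lists for processing and clearance, soluble guanylyl cyclase, cyclic GMP kinases with their targets, and cyclic GMP phosphodiesterases. Mural cells of the GFP-negative library were past 2-fold above fibroblasts in many genes of 3 of these lists, and below them in 1 of 4 measured genes of processing and clearance, where 23.3% of all genes were past 2-fold in either direction. All 3 subunits of soluble guanylyl cyclase, the nitric oxide receptor that makes the same messenger, were higher by more than 2-fold, with Gucy1a1 at 257 against 93.7 CPM and Gucy1b1 at 256 against 75.7 CPM, and the list's median log2 ratio was 1.76. Of the kinases and targets 4 of 5 were higher: the kinase gene Prkg1 (23.8 against 4.84 CPM), its substrates Irag1 (33.4 against 4.64 CPM) and Vasp (241 against 76.1 CPM), and Pln (40.3 against 1.75 CPM). The median log2 ratio of kinases and targets was 2.31, beside 0.09 over all genes measured. Phosphodiesterases, which break cyclic GMP down, were higher in 3 of 5, with Pde3a at 153 against 52.9 CPM and Pde5a at 46.6 against 22.7 CPM, a median of 1.04. In RA the counts were 3 of 3 cyclases, 4 of 4 kinases and targets and 1 of 5 phosphodiesterases, with medians of 1.76, 2.33 and 0.91 beside 0.10 over all genes, and 2 of 4 processing genes were lower. There 29.4% of all genes were past 2-fold, more than the share of phosphodiesterases.

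**Figure D5:**
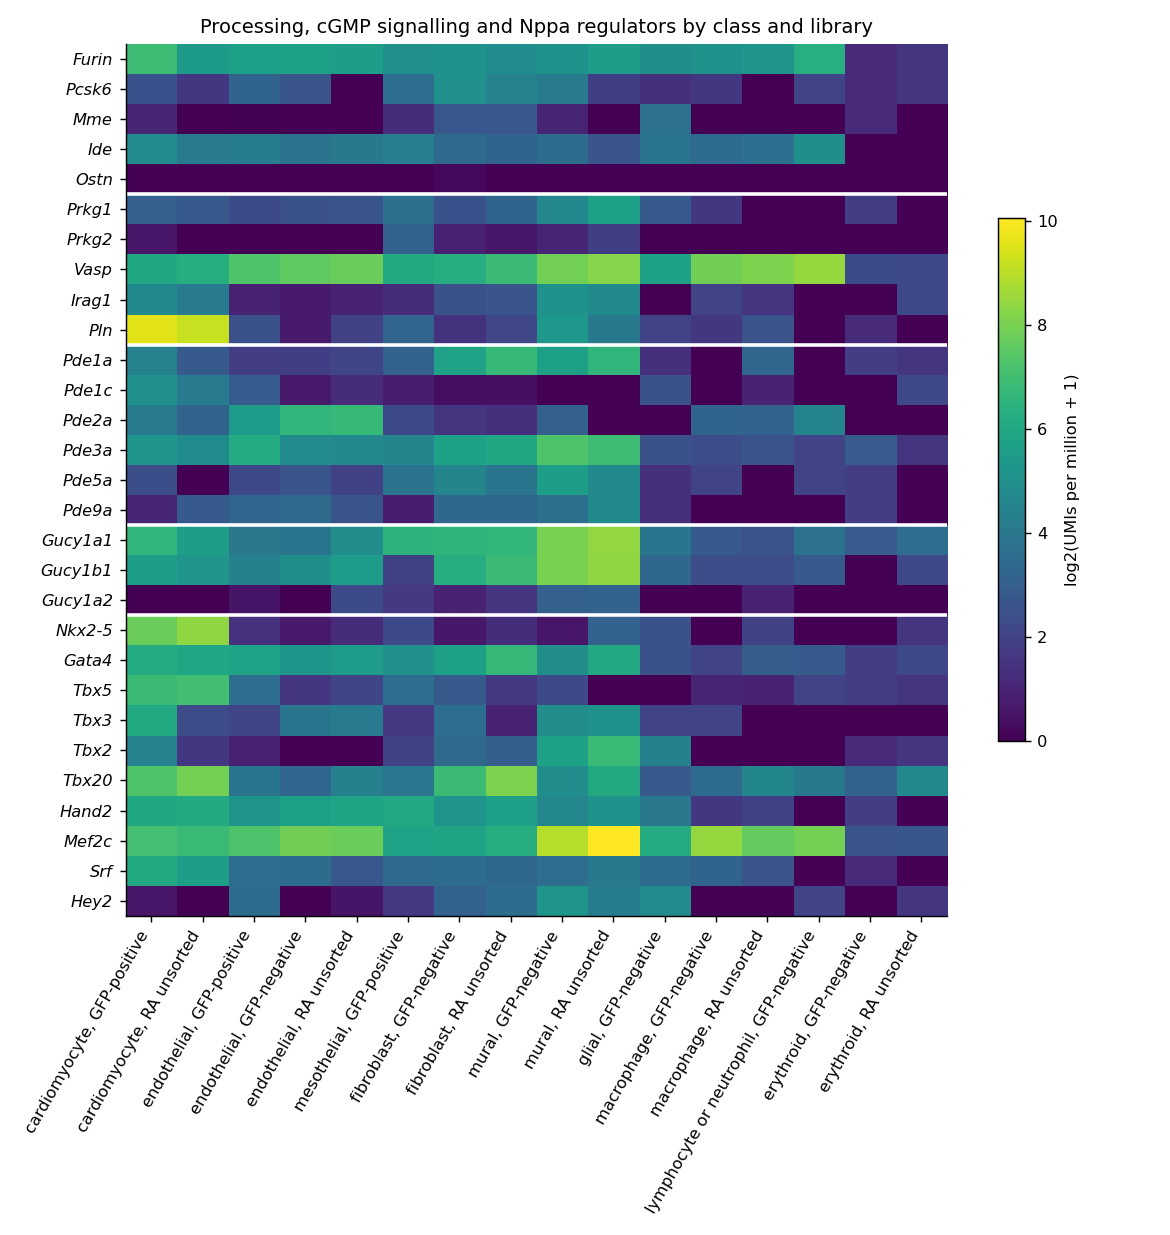
Levels of the pathway genes by class and library, coloured by CPM on a log scale. Mural cells of both libraries held the highest levels of the cyclases Gucy1a1 and Gucy1b1 (257 and 256 CPM in the GFP-negative library), and endothelial cells those of Pde2a.

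Endothelial cells held less of the main soluble cyclase genes than fibroblasts. In the GFP-negative library, where 32.7% of all genes were past 2-fold, Gucy1a1 was at 14.1 against 93.7 CPM and Gucy1b1 at 30.8 against 75.7 CPM. Gucy1a2, at 0 UMIs against 0.979 CPM, counted as lower only through the amount added to each sum. Its fibroblast level lay below a floor of 3 UMIs in this endothelial class, so no difference could be shown. The list's median (log2 -1.58) was the Gucy1a2 ratio and carries the same limit. In RA, where 29.5% of all genes were past 2-fold, Gucy1a1 (log2 -1.73) and Gucy1b1 (-1.31) were lower. There Gucy1a2 counted as higher (1.09, -0.39 to 2.35), with an interval that includes no difference. In GFP-negative endothelial cells Pde2a, a phosphodiesterase that cyclic GMP itself stimulates, was at 97.1 CPM, against 1.96 CPM in fibroblasts. Between libraries, GFP-positive endothelial cells held less Pde2a (46.4 against 106 CPM) and more Pde3a (72.3 against 25.4 CPM) than those of RA. All 3 cyclase genes were lower by more than 2-fold than in RA (median log2 -1.19, beside 0.04 over all genes, of which 22.4% were past 2-fold), but against GFP-negative endothelial cells all 3 lay between (median 0.03, with 21.0% of all genes past 2-fold). Of the processing genes Furin, which encodes a protease that can cut the Nppb precursor, was at 118 CPM in GFP-positive against 43.2 CPM in RA cardiomyocytes and was the only one of 3 measured that was past 2-fold. Between these cardiomyocytes 24.1% of all genes were past 2-fold, so 1 of 3 is not read as a result about the list. Mme, the gene of neprilysin, which degrades natriuretic peptides, was highest in glial cells (12.3 CPM, from only 8 UMIs in 68 cells). Next were fibroblasts (5.69 CPM in RA and 5.56 CPM in GFP-negative), and so few glial UMIs leave this order uncertain.

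Likeness of pattern was measured as Pearson's correlation of log2(CPM + 1) over the 16 classes of a library that had 30 or more cells, with no test, since the points share 3 libraries. Nppa was most like Sln (0.964), Ckm (0.958) and Smpx (0.951), all muscle genes highest in RA cardiomyocytes. Nppc was most like Pthlh (0.896), Cldn11 (0.869) and Fbln2 (0.817). Corin was most like Pcp4l1 (0.937), the calcium store gene Casq2 (0.909) and Prkaa2 (0.899). For the receptors, Npr1 was nearest to Igf2 (0.888), Procr (0.887) and Iigp1 (0.886), and Npr2 to Bmp4 (0.940), Mgp (0.8995) and Nxn (0.898). Npr3 was nearest to the gate marker Adgrg6 (0.905), Vamp5 (0.905) and Ece1 (0.899). Nppb had too few UMIs in gated cells to be compared.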

How the data were processed

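The deposited values were whole-number UMI counts per gene and cell barcode in 3 libraries, made by the authors with Cell Ranger and the mm9 genome, per the submitters' processing notes, and further settings are not given in the sources used here. A barcode entered the analysis when it had 500 genes or more and no more than 50% of its UMIs were mitochondrial. Classes came from 9 gates, each asking for 3 markers at 2 UMIs or more, and 7 sub-gates; 111 of 112 markers matched a feature. No doublet caller was run, and cells that passed several gates were left out. Library depth over all barcodes was 19975326 to 50416748 UMIs.

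A level is the CPM (UMIs per 1e6 UMIs) of the summed class with an exact Poisson interval at 95%, and a share of cells has an exact Clopper-Pearson interval. Ratios are log2 ratios of summed CPM with 0.5 added to each sum and an exact conditional binomial interval, given for classes of 30 cells or more. A gene counts as measured at 10 UMIs in both classes together, and past 2-fold is a description, not a test. A class at 0 was given a floor of 3 UMIs per summed class. Shares were also read after thinning each cell to 2000 UMIs, and no kept cell was shallower. The comparisons share libraries and so are not independent, and fewer cells with a gene and less RNA per cell were separated only where values per cell are given.

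The text names the 7 members, 36 genes of 6 lists around them, and for each member with 100 UMIs or more in gated cells the 3 genes of most similar pattern. Genes outside this rule are said to have been chosen after their values were seen. The members, lists, gates and comparisons were chosen with earlier results of these data known. Promoter windows are RefSeq sequence, and all 7 members had a window. The code was tested on simulated data. It used Python 3.11.15, numpy 2.4.6, scipy 1.17.1, pandas 2.3.3 and matplotlib 3.10.9.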

Additional observations from a re-analysis of the deposited data

How the results depend on the processing

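The 21 ratios were recomputed under 12 alternatives, which gave 220 values. All 220 kept the sign of the reported value, 187 lay within its counting interval and 33 did not, 26 differed by more than a factor of 1.5, and 16 were not given, for classes with under 30 cells or a level of 0. The cause of each move was not tested.

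Nppa in GFP-positive over RA cardiomyocytes, reported as log2 -2.77, was -2.69 with markers counted from 3 UMIs, -2.64 with 2 markers, -2.63 with 4 markers, -2.89 with cells of several gates given to the class with the most markers, -2.62 with a higher minimum of genes per cell, -3.03 as a mean over cells, -2.68 without the 5% of cells with the most UMIs and -2.70 without haemoglobin and mitochondrial UMIs. Corin in the same contrast (reported 0.91) was 2.02 with 2 markers, and 0.42 (-0.01 to 0.89) with gates read after thinning. Corin in His bundle over node cells was 2.41 with gates read after thinning (1.34). Nppc in GFP-positive over RA endothelial cells, which is bounded only from below, was 7.21 with 0.5 and 3.89 with 5 UMIs added to each sum. Npr3 in endocardial over other endothelial cells of the GFP-negative library (2.49) was 3.003 from 3 UMIs per marker and 3.06 with other sub-gates ignored, a setting chosen after seeing the data. In RA (2.46) it was 2.04 with 4 markers, 1.96 by most markers and 3.38 with other sub-gates ignored. Corin in mural cells over fibroblasts of the GFP-negative library (4.26) was 3.60 from 3 UMIs, 3.30 with 4 markers, 2.93 by most markers, 3.49 after thinning and 3.62 as a mean over cells.

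No paired analysis was possible because each group has 1 library, and no library was left out in turn. Depth limits Nppb, which had 3 to 33 UMIs in the cardiomyocytes of a library, and the zeros of Nppc and Npr2 in RA.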
